A study of Saccharomyces cerevisiae with 2 samples.

Results

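The RNAs described here are made from the mitochondrial genome of *Saccharomyces cerevisiae*. They were chosen by name rather than by a measured value, though with earlier results of these data known. They are the 2 mitochondrial rRNAs 15S_RRNA and 21S_RRNA, the mRNAs COX1, COX2, COX3, COB, ATP6 and VAR1, and RPM1, the RNA subunit of mitochondrial RNase P. Of these 9 features, 5 were among the 5758 features listed in at least 1 library, and the other 4 were listed in neither, which means 0 reads. The study used CRAC, which freezes contacts between protein and RNA by irradiating cells with UV light, isolates a tagged protein in successive steps and sequences cDNA copies of the crosslinked RNA pieces. One library came from BY4741 cells in which the chromosomal SNI445 gene carries a C-terminal HTP tag (a His tag, a TEV cleavage site and protein A) with klURA3 as marker, and the other from untagged wild-type BY4741, where RNA is recovered without a tagged protein. Both cultures grew in YNB without tryptophan with glucose to an optical density of 0.6, were irradiated for 100 seconds and gave cDNA that went through 16 cycles of PCR. Each strain has a single library (1), which leaves no replicate check and no p-value, so every comparison below is between these libraries. Every 95% interval covers counting error only and treats each count as independent. PCR copies of a molecule are not independent, so the intervals in reads are too narrow.

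The yeast mitochondrial genome is transcribed by its own RNA polymerase, Rpo41 with the factor Mtf1, into long RNAs that are cut and spliced into the rRNAs, tRNAs and mRNAs of the organelle. The 15S and 21S rRNAs form the small and large subunits of the mitochondrial ribosome, which translates almost only the few mRNAs of this genome. The study asks which RNAs are contacted by Sni445, a factor of cytosolic ribosome assembly, with the snoRNAs snR4 and snR45 in view, which guide Kre33 to acetylate cytidines of the 18S rRNA, and the RNAs of the organelle lie outside the compartment where that takes place.

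In the R64 yeast genome the 15S gene runs from 6546 to 8194 of the mitochondrial chromosome, 1649 nt, and the 21S gene from 58009 to 62447, 4439 nt with an intron of 1143 nt, which leaves 3296 nt of rRNA. The mitochondrial chromosome has 17.1% G and C, against 38.3% over the other chromosomes. The first 60 nt of both mitochondrial rRNAs, of the COX1 coding sequence and of the cytosolic 18S rRNA (first annotated copy, chromosome XII, minus strand, 457673 to 457732) are shown as DNA, with G and C in capitals, because the difference in base composition is part of what sets these RNAs apart from the rRNA they are compared with.
15S_RRNA: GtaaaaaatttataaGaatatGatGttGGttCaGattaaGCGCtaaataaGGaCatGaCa
21S_RRNA: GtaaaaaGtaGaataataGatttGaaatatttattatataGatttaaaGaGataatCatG
COX1: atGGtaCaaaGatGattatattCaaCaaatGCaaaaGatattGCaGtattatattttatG
RDN18-1: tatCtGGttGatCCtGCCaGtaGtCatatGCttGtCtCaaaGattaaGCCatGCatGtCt
In this opening stretch 28.3% of the bases of 15S, 16.7% of 21S and 23.3% of COX1 are G or C, against 41.7% of 18S.

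Transcription in yeast mitochondria starts at a conserved nonanucleotide. The letters ATATAAGTA on the coding strand were searched for from 200 nt upstream of each gene to its start, and they were found at 15S and at 21S and at none of the other 7 genes. Over all 46 genes annotated on the mitochondrial chromosome, 3 (6.52%) have these letters in that window. The matches are shown in capitals with 10 nt on each side, at 6462 to 6470 for 15S and at 58000 to 58008 for 21S, both on the plus strand.
15S_RRNA upstream: atttattattATATAAGTAataaataatag
21S_RRNA upstream: attattatatATATAAGTAgtaaaaagtag
The 15S match lies 76 bases before the annotated gene start and the 21S match directly before it.

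The 15S rRNA was searched for the closest match of letters to each cytosolic site guided through snR4 and snR45. Each 21 nt window of 18S, with the target cytidine as its middle base in capitals, is shown above the 15S window with the most identical bases, whose identical bases are in capitals. The 18S windows lie on chromosome XII, minus strand, at 456443 to 456463 for C1280 and at 455950 to 455970 for C1773, and the 15S windows at 7642 to 7662 and at 8137 to 8157.
18S, snR4 site: ggtgcatggcCgttcttagtt
15S, nearest to the snR4 site: GtTaCATtGttGTctTTAGTT
18S, snR45 site: acaaggtttcCgtaggtgaac
15S, nearest to the snR45 site: AtAcaGTTaCCGTAGGgGAAC
For the snR4 site 14 of 21 bases were identical, with a T in place of the target C in the middle. A match as good was also held by 11.8% of 1941 other genes at least as long as 15S. For the snR45 site 16 of 21 were identical, with a C in the middle, and 15 of those 1941 genes (0.773%) held a match as good. The 1941 genes leave out the cytosolic rRNA genes. How far the small-subunit rRNAs 15S and 18S match outside these windows was not tested, so the low share does not mark a site particular to snR45. The best windows of 21S had 12 identical bases for either site, which 86.9% and 99.0% of the genes equalled. These are matches of letters only: the deposited values carry no position within a gene, so reads on these windows were not counted.

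Under a limit of 1000 on read length, 21867727 reads were mapped for Sni445-HTP and 12654405 for the control. Since the authors counted a read on every feature it overlaps, these came to 26984818 and 22960662 counts in the sense direction, the totals over which shares were taken. The number of distinct cDNAs summed to 322543 with Sni445-HTP and 804158 in the control. SnR4 and snR45 held 79.5% of the sense counts of the Sni445-HTP library, against 1.42% of those of the control, so the RNAs the study names for Sni445 were in the library labelled with its tag. With 2 intergenic features the shares were 97.1% and 1.84%, so every other RNA divided the small remainder of the Sni445-HTP library.

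The mitochondrial RNAs were scarce in both libraries, and their share was lower with Sni445-HTP. The 9 features summed to 417 sense reads, 0.00155% of the sense counts, in Sni445-HTP and to 13587 reads, 0.0592%, in the control. The first share was 0.0261 times the second (0.0236 to 0.0288). In distinct cDNAs, which count a molecule copied by PCR fewer times, the sums were 112 and 402, or 0.0347% and 0.0500%, a ratio of 0.695 (0.558 to 0.858). The direction was thus the same in both units and the size was not.

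A feature was called lower with at least 100 control reads and a ratio of shares of at most 0.25, and higher with at least 100 Sni445-HTP reads and a ratio of at least 4. All 3 members with at least 100 control reads, 15S, 21S and COB, were called lower. The same call fell on 98.2% of the 911 features tested in that direction, so the calls of these members do not set them apart. Of the 3 members with at least 100 reads in Sni445-HTP, 1 was called higher, COX1, where 21.2% of the 179 features tested were.

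**Figure D1:**
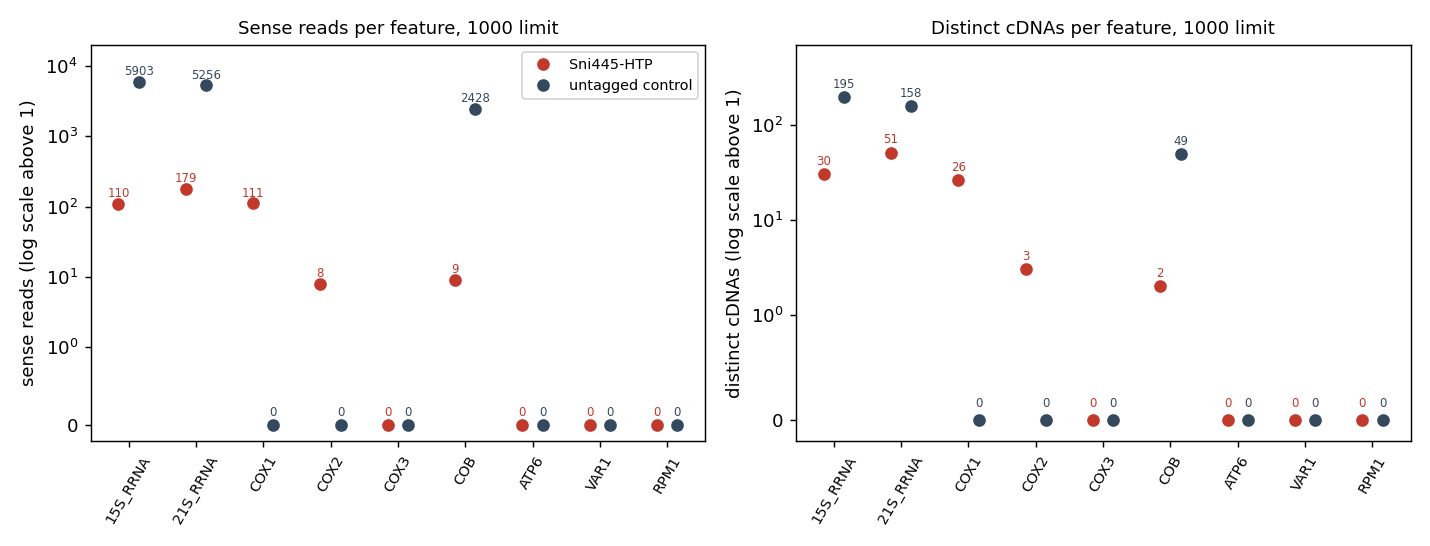
Sense reads (left) and distinct cDNAs (right) of the 9 mitochondrial features under the 1000 limit, on a scale that is logarithmic above 1 and shows 0, with 1 point per library (Sni445-HTP left of the untagged control). 15S and 21S are higher in the control, COX1 has 111 reads with Sni445-HTP and no control read, and COX3, ATP6, VAR1 and RPM1 are at 0 in both.

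The small-subunit rRNA of the mitochondrial ribosome, 15S, had 110 sense reads in Sni445-HTP and 5903 in the control, from 30 and 195 distinct cDNAs. Its share was 0.0159 times that of the control (0.0130 to 0.0191), a log2 ratio of -5.98. In cDNAs the ratio was 0.384 (0.252 to 0.565), so 15S was lower with Sni445-HTP in both units.

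The large-subunit rRNA, 21S, which carries the peptidyl transferase center, had 179 sense reads in Sni445-HTP and 5256 in the control, from 51 and 158 cDNAs. The ratio of shares was 0.0290 (0.0248 to 0.0336), a log2 ratio of -5.11. In cDNAs it was 0.805 (0.575 to 1.11), an interval that includes 1, so a difference in 21S was not detectable in that unit at this depth. Neither mitochondrial rRNA had an antisense read in either library.

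Both ratios lay in the middle of what other RNAs showed. Over the 587 features with at least 10 reads in each library the median ratio of shares was 0.0208, and 15S ranked 248 and 21S 362 from the lowest. The cytosolic rRNAs, the main RNA of any yeast extract, had a ratio of 0.0321 (0.0320 to 0.0323) for 18S and 25S together, 0.0309 for 18S, 0.0324 for 25S and 0.0162 for 5S. The 21S value was close to that of 25S, and the 15S value was close to the summed value of 5S, whose 6 copies ranged from 0.0119 to 0.0364. Among 139 features with at least 100 reads in each library, the 3 nearest to 15S over the log2 ratios in reads under both limits and in cDNAs were FBA1, a glycolytic aldolase mRNA (distance 0.33), TDH2, a glyceraldehyde-3-phosphate dehydrogenase mRNA (0.47), and snR86 (0.49). The 3 nearest to 21S were cytosolic rRNA features, RDN5-4 (0.31), RDN18-1 (0.40) and RDN37-2 (0.42).

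A ratio within a library needs no library total, and so does not depend on the counts taken by snR4 and snR45. Per 1000 reads of cytosolic 18S and 25S rRNA, Sni445-HTP had 1.04 reads of mitochondrial rRNA (0.924 to 1.17), where the control had 1.52 (1.49 to 1.55). The first value was 0.686 times the second (0.608 to 0.771). In cDNAs the values were 1.82 per 1000 (1.45 to 2.27) and 2.20 (1.97 to 2.44), and their ratio, 0.830 (0.643 to 1.06), had an interval that includes 1. Within the 30 limit the ratio was 0.579 in reads (0.491 to 0.678) and turned to 1.83 in cDNAs (1.15 to 2.91), so the direction depended on the unit there.

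Taken by subunit, the values under the 1000 limit differed more for the small one. There were 2.13 reads of 15S per 1000 of 18S in Sni445-HTP, against 4.14 in the control. The ratio was 0.513 (0.421 to 0.620), and in cDNAs it was 0.365. The large-subunit pair, 21S per 1000 of 25S, had 0.792 in Sni445-HTP and 0.886 in the control. That ratio was 0.893 (0.765 to 1.04), and in cDNAs 1.35 (0.964 to 1.86). Under that limit small-subunit rRNA of the organelle was thus lower with Sni445-HTP relative to its cytosolic counterpart, and for the large subunit both intervals include 1. Within the 30 limit, 15S over 18S was 0.608 in reads (0.476 to 0.765) and 21S over 25S 0.691 (0.550 to 0.857). Both were thus lower there in reads, though the 2971 control reads of 15S came from only 8 cDNAs. In cDNAs within the 30 limit 15S over 18S turned to 2.77 (1.14 to 7.35), with 8 control cDNAs of 15S, and 21S over 25S was 1.45 (0.804 to 2.58).

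The balance of the 2 mitochondrial rRNAs differed too under the 1000 limit. For every 100 reads of 15S Sni445-HTP held 163 of 21S (128 to 208) where the control held 89.0 (85.8 to 92.4), and in cDNAs 170 (106 to 276) and 81.0 (65.3 to 100). Per kilobase of spliced RNA, Sni445-HTP had 66.7 reads on 15S and 54.3 on 21S, where the control had 3580 and 1595. In cDNAs per kilobase these were 18.2 and 15.5 with Sni445-HTP, and 118 and 47.9 in the control. Read density was thus nearly even over both rRNAs with Sni445-HTP, and higher on 15S in the control.

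**Figure D2:**
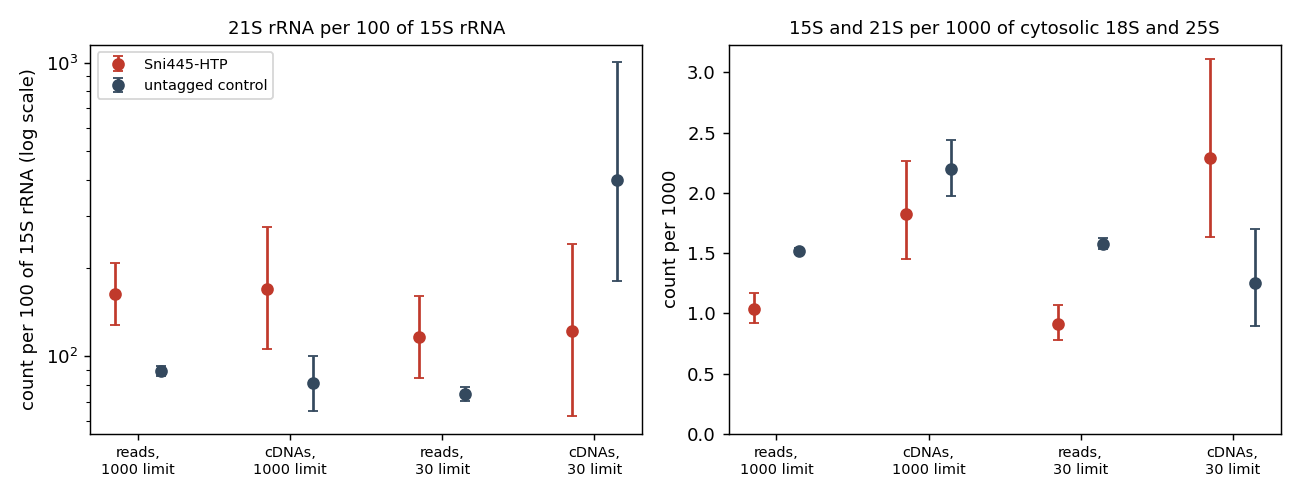
Ratios within each library, in reads and cDNAs under both length limits (Sni445-HTP left of the untagged control). The 95% intervals treat each count as independent. The left panel, on a log scale, gives 21S per 100 of 15S, which is higher with Sni445-HTP in all but the cDNAs within the 30 limit, where the control holds 8 cDNAs of 15S. The right panel gives 15S and 21S per 1000 of cytosolic 18S and 25S.

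Fragment length was read from the counts under a limit of 30 on read length, which are part of those under the limit of 1000. For 15S, 67.3% of the Sni445-HTP reads (57.7 to 75.9) were within the 30 limit, and 50.3% of the control reads (49.0 to 51.6). Of the cDNAs of 15S, 18 of 30 were that short with Sni445-HTP, and 8 of 195 (4.10%) in the control. For 21S the short portion was 48.0% of reads for Sni445-HTP, against 42.1% for the control, and 43.1% and 20.3% of cDNAs. Cytosolic 18S and 25S had 63.0% and 44.6% of reads and 39.4% and 19.9% of cDNAs, so a larger short portion with Sni445-HTP was seen for the cytosolic rRNAs too.

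The libraries differed in how often each molecule was copied. There were 3.67 reads per cDNA of 15S in Sni445-HTP and 30.3 in the control, and 3.51 and 33.3 for 21S. The 8 short control cDNAs of 15S carried 371 reads each on average, against 15.7 for the longer ones. Over all features with at least 10 cDNAs the median was 2.75 reads per cDNA in Sni445-HTP, against 33.6 in the control. The mitochondrial rRNAs thus followed their libraries, and the part of this copying in the read ratios was not tested.

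COX1 encodes the catalytic subunit of cytochrome c oxidase. It had 111 sense reads and 26 cDNAs in Sni445-HTP. The control had no read of it, and a floor of 3 counts among 22960662 sense counts is a share of 1.31e-05%. Against that floor its share was 31.5-fold higher with Sni445-HTP, and 21.6-fold higher in cDNAs against 3 cDNAs. With a median of 33.6 reads per cDNA in the control, 3 reads are fewer than a typical control cDNA carried. The value in reads is thus not a firm bound, and neither value covers the counting error of COX1 itself. With Sni445-HTP, COX1 thus had about as many reads as 15S, 111 and 110, whereas 15S had 5903 control reads and COX1 none. Per 100 reads of 15S and 21S together there were 38.4 of COX1 in Sni445-HTP (30.6 to 48.0), and 0.0269 in the control at the floor. Per 100 cDNAs the values were 32.1 and, at the floor, 0.850.

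COX1 was not the only mRNA seen in Sni445-HTP alone. Of the 38 features called higher, 27 had no control read. Sense reads fell on 1778 protein-coding features in Sni445-HTP, with a median of 5 reads, and on 528 in the control, with a median of 1446.5. Of these, 98.2% had under 100 reads in Sni445-HTP, against 21.2% in the control. The control thus held few mRNAs with many reads each, and in Sni445-HTP COX1 ranked 30 of the 1778. Among the 32 protein-coding features with at least 100 Sni445-HTP reads, 7 had none in the control, namely the ribosomal protein mRNAs RPS7B (6446 reads), RPL2B (1401), RPL2A (935) and RPL7A (177), PGI1 for phosphoglucose isomerase (891), YEF3 for an elongation factor (137) and COX1 (111).

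The COX1 gene runs from 13818 to 26701 of the mitochondrial chromosome in R64, plus strand, 12884 nt with 8 exons and 1605 nt of coding sequence. Several of its introns hold reading frames that continue the upstream exons and encode maturases or endonucleases, and these frames begin at the COX1 start and end at successive points along the gene. Differences between their counts therefore place reads in stretches, as far as each feature was counted over its whole span with its ends in the R64 order. From the gene start to the end of AI1, 2505 nt, there were 44 reads and 9 cDNAs in Sni445-HTP. The next 2508 nt, to the end of AI2, had 27 reads and 6 cDNAs. The 1166 nt to the end of AI3 had 0 reads.

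Coverage of COX1 was lower in the middle of the gene and present again at its end. The stretch to the end of AI4, 1939 nt, had 4 reads and 2 cDNAs, and that to the end of AI5_ALPHA, 1232 nt, had 7 reads and 2 cDNAs. The remaining 3534 nt had 29 reads and 7 cDNAs. AI5_BETA, a frame of 1100 nt within this last stretch, was not listed in either library, which means 0 reads if it was annotated. Within the 30 limit 40 reads (36.0%) and 7 cDNAs (26.9%) were left, 27 reads in the first stretch and 13 in the last. With 26 cDNAs over 12884 nt, which stretches hold more than others is known only within wide counting error, and exon and intron reads cannot be told apart within a stretch.

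**Figure D3:**
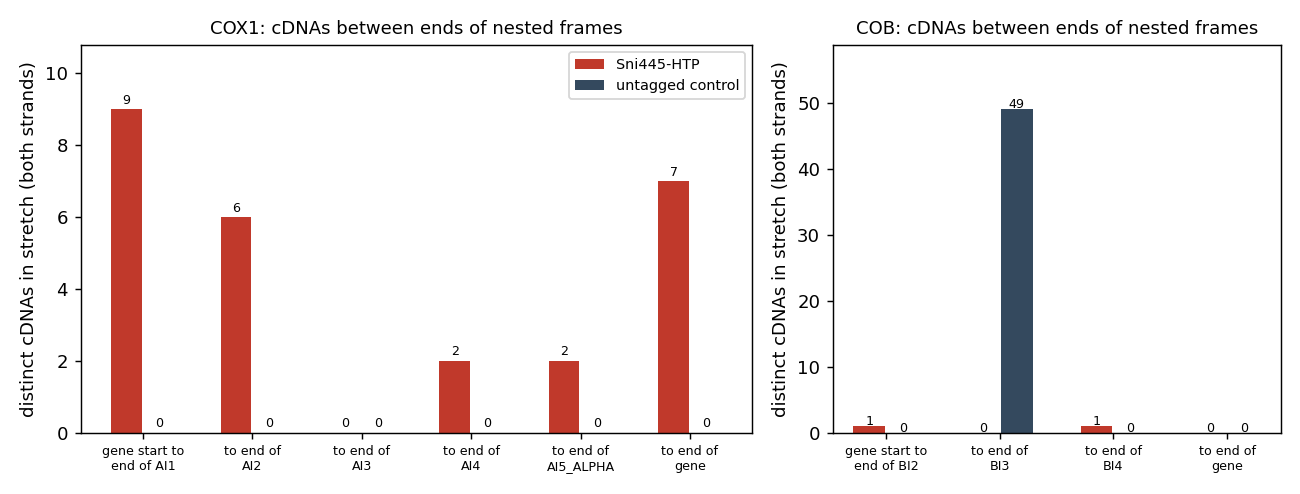
Distinct cDNAs (both strands) between successive ends of the reading frames nested in COX1 (left) and COB (right), from gene start to gene end, with Sni445-HTP left of the untagged control and both axes from 0. COX1 has 9, 6, 0, 2, 2 and 7 cDNAs with Sni445-HTP and none in the control, and the 49 control cDNAs of COB lie in a single stretch.

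COB encodes cytochrome b of complex III. It had 9 sense reads, 1 antisense read and 2 cDNAs in Sni445-HTP, and 2428 sense reads and 49 cDNAs in the control. The ratio of shares was 0.00315 (0.00144 to 0.00600), and in cDNAs 0.102 (0.0120 to 0.388). COB was thus the member with the lowest ratio, under those of 15S and 21S in both units. In cDNAs it rests on 2 in Sni445-HTP, and its interval overlaps that of 15S (0.252 to 0.565). The 187 protein-coding features with at least 10 reads in each library had a median ratio in reads of 0.0121 and a lowest of 0.000918. COB, with 9 reads in Sni445-HTP, is not among them, and its ratio does not set it apart from other mRNAs. Per 100 reads of mitochondrial rRNA there were 3.11 COB reads in Sni445-HTP and 21.8 in the control, and per 100 cDNAs 2.47 and 13.9. Among the protein-coding features of the control it ranked 192 of 528.

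The reads of the libraries lay in different stretches of COB. The gene runs from 36540 to 43647 in R64, plus strand, 7108 nt with 6 exons and 1158 nt of coding sequence, and its nested frames are BI2, BI3 and BI4. The 9 sense reads of Sni445-HTP, from 1 cDNA, were between the gene start and the end of BI2, and the antisense read between the ends of BI3 and BI4. In the control all 2428 reads and 49 cDNAs were between the ends of BI2 and BI3, a stretch of 1686 nt with 15.3% G and C. None of the 1657 windows of 30 nt in that stretch occurs on the other chromosomes of R64. Over whole genes, 263 of 7079 windows of COB did, and 25 of 1620 of 15S. For 21S it was 27 of 4410, and for COX1 7 of 12855, all in its last stretch. All 9 sense reads of COB with Sni445-HTP were within the 30 limit, and 0 of the 2428 control reads were. Since those 9 reads came from 1 cDNA, they cannot show that position or length on COB differed between the libraries.

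COX2, which encodes the copper-binding subunit of cytochrome c oxidase and lies from 73758 to 74513, had 8 reads and 3 cDNAs in Sni445-HTP and 0 in the control. The ratio of shares against the floor of 3 control counts was 2.27, and 7 of the reads and 2 of the cDNAs were within the 30 limit. COX3, which encodes the third core subunit of the same enzyme, ATP6, a proton-channel subunit of ATP synthase, VAR1, a protein of the small mitochondrial ribosomal subunit, and RPM1 had 0 reads in both libraries. The floor of 3 counts is a share of 1.11e-05% in Sni445-HTP, against 1.31e-05% in the control, and these RNAs were not detectable in either library. Among the mRNAs of the organelle, COX1 alone passed 100 reads with Sni445-HTP and COB alone in the control.

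The other products of the same genome had few reads. Of 14 further reading frames, 9 had sense reads in Sni445-HTP and 2 in the control, but 8 of these and both control frames overlap COX1 or COB and share their reads. BI3 and BI4, called lower, are the COB reads counted again. OLI1 and ATP8, for further subunits of ATP synthase, and SCEI, the endonuclease frame in the 21S intron, had 0 reads in both libraries, and Q0182 had 2 reads in Sni445-HTP. Of 24 mitochondrial tRNAs, 9 had reads in Sni445-HTP, 35 reads and 13 cDNAs in all, and none had any in the control. The tyrosine tRNA tY(GUA)Q had 11 of these reads, tW(UCA)Q 7 and tK(UUU)Q 4. Over all features, 3167 had sense reads in Sni445-HTP and 1419 in the control.

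Nuclear genes that serve the organelle are set beside all protein-coding features, of which 1778 had reads in Sni445-HTP and 528 in the control. Over the 6021 protein-coding genes of R64 these are 29.5% and 8.77%. The features counted are those of the authors' annotation, another build, so both percentages are approximate. Of 12 genes for mitochondrial transcription, rRNA modification and RNA decay, 2 had reads in Sni445-HTP and 0 in the control, and of 16 translational activators, 3 and 0, and none was called. Of 91 genes taken as mitochondrial ribosomal proteins by the form of their name, 18 had reads in Sni445-HTP and 3 in the control, and the 2 with at least 100 control reads were called lower, MRP8 (11 reads in Sni445-HTP, 3326 in the control) and MRPL8 (3 and 1743), where 98.2% of all features tested were. Of 30 nuclear subunits of the respiratory complexes and ATP synthase, 12 had reads in Sni445-HTP and 7 in the control.

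In that last group the 6 genes with at least 100 control reads were all called lower, again beside 98.2% of all features tested, and none had the 100 Sni445-HTP reads needed for the higher call. ATP1 and ATP2, for the alpha and beta subunits of ATP synthase, had 8 and 32 reads in Sni445-HTP, against 3035 and 3527 in the control. CYT1, for cytochrome c1, had 2 and 2120. COX4 and COX12, for cytochrome c oxidase subunits, and QCR6, for a subunit of complex III, had 0 reads in Sni445-HTP and 1534, 6581 and 7349 in the control. No nuclear gene of these 4 lists had 100 Sni445-HTP reads, so they could not be compared with COX1 on reads seen in Sni445-HTP alone. Over all protein-coding features 32 had that many, and 7 of these had no control read.

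The size of each ratio depended on the unit and the denominator. Without snR4, snR45 and the 2 intergenic features, the ratio of shares was 0.528 for 15S, 0.965 for 21S and 0.870 for the 9 features summed, and with median-ratio scaling 0.763, 1.40 and 1.26. Under either, 15S and 21S were not called, COX1 was called higher and COB lower. The shares of all tested features called were then 31.3% higher and 42.6% lower without the 4 features, and 38.0% and 34.8% with median-ratio scaling. Under the 30 limit 15S and 21S were called lower, and COX1, with 40 reads, and COB were not called. In cDNAs, with a minimum of 100 cDNAs, no member was called. In cDNAs within the 30 limit the ratio of 15S was 2.82, against 8 control cDNAs. Across all of these the control had no read of COX1.

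**Figure D4:**
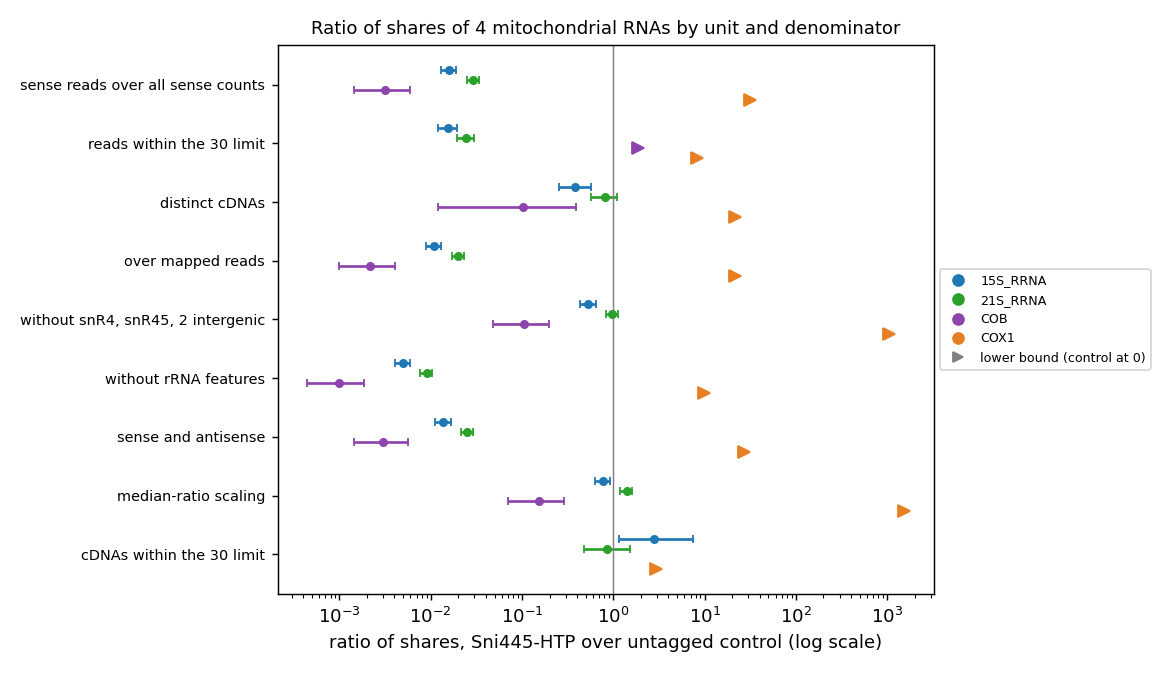
Ratio of shares, Sni445-HTP over untagged control, on a log scale for 15S, 21S, COB and COX1 by unit and denominator. The 95% intervals treat each count as independent, and the vertical line marks 1. Triangles, labelled as lower bounds, are ratios against a floor of 3 counts where the control is at 0. COX1 lies right of 1 in each row, at 31.5 in the top row and from 2.93 to 1516 elsewhere.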

How the data were processed

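CRAC was analysed from 1 library of the Sni445-HTP strain and 1 of the untagged control. The authors separated reads by index with 1 mismatch allowed, checked them with FastQC 0.12.1, aligned them to the EF2.59 genome using Novoalign 3.09.00, which set each read of ambiguous origin at a random matching place, and counted them with pyReadCounters. The methods give pyCRAC 1.5.1 and the header of the counts version 1.4.4 of the counting module. The sequencer was a MiSeq per the labels and a NextSeq2000 per the methods. The deposited values are raw counts per feature (sense reads, antisense reads and distinct cDNAs, the last not split by direction), for reads up to a length limit of 30 or 1000. The way distinct cDNAs were told apart is not given in the sources used here.

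Shares of sense counts were compared as a ratio with an exact conditional binomial 95% interval, and shares within a library with an exact Clopper-Pearson interval. Where a library had 0 counts, 3 counts served as its floor. In reads this floor is under the median of 33.6 reads per control cDNA, so ratios against it are not firm bounds. The depth was 21867727 and 12654405 mapped reads, so small counts limit the precision. Python 3.11.15, numpy 2.4.6, scipy 1.17.1 and matplotlib 3.10.9 were used. R64, another build than EF2.59, was matched by gene name only, for places and sequences (RefSeq). The members and lists were chosen with earlier results of these data known. Named were every member, the cytosolic rRNAs, snR4 and snR45, other mitochondrial features, the 3 features nearest to each mitochondrial rRNA, and called genes of 4 lists of nuclear genes; the 7 protein-coding features without control reads were chosen for naming once their values had been seen. The alternatives were the 30 limit, cDNAs, other denominators and scalings, and other minimums, ratios and floors; cDNAs within the 30 limit and all alternatives for COX1 and COB were added after seeing the data. Positions of reads and of deletions were not analysed here.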

Additional observations from a re-analysis of the deposited data

Results flagged for a closer look

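The mitochondrial tRNAs stand outside the rRNAs and mRNAs compared above and had reads in 1 library only. They summed to 35 sense reads and 13 cDNAs over 9 of 24 tRNAs in Sni445-HTP, against 0 reads in the untagged control. Over all features, 3167 had sense reads in Sni445-HTP and 1419 in the control. Reads in Sni445-HTP without a control read were thus not particular to these tRNAs. Against a floor of 3 control counts, the summed share of these tRNAs was 9.93-fold higher. That floor is under the median of 33.6 reads per control cDNA, so the value is not a firm bound. With 1 library per strain it has no replicate check.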

How the results depend on the processing

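Most values moved with the unit or the denominator: of 70 alternatives computed, 19 moved a value by less than its counting error or kept a count, 46 moved it further and 5 turned its direction. The main value of COX1 has no interval, so all of its alternatives are among the 46 whatever their size. The cause of these moves was not tested. The ratio of shares of 15S was 0.384 in cDNAs, 0.0108 over mapped reads, 0.528 without snR4, snR45 and 2 intergenic features, 0.00492 without rRNA features and 0.763 with median-ratio scaling, and turned to 2.82 in cDNAs within the 30 limit. That of 21S was 0.0242 under the 30 limit, 0.805 in cDNAs, 0.0197 over mapped reads, 0.965 without the 4 large features, 0.00899 without rRNA features and 0.862 in cDNAs within the 30 limit, and turned to 1.40 with median-ratio scaling. That of the 9 features summed was 0.695 in cDNAs, 0.0178 over mapped reads, 0.870 without the 4 large features, 0.00810 without rRNA features and 0.0227 with antisense reads added, and turned to 1.26 with median-ratio scaling and 1.60 in cDNAs within the 30 limit. The ratio of COB turned to 1.87 against the floor under the 30 limit, where the control had 0 reads. That of COX1 was above 1 in each, from 2.93 to 1516, but always against the floor for the same control library with 0 reads of it.

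The number of 21S reads per 100 of 15S was 116 under the 30 limit and 122 in cDNAs within it for Sni445-HTP, and 74.6 under the 30 limit, 81.0 in cDNAs and 400 in cDNAs within the limit for the control. Mitochondrial per 1000 cytosolic rRNA was 0.914 under the 30 limit, 1.82 in cDNAs and 2.29 in cDNAs within the limit for Sni445-HTP, and 1.58, 2.20 and 1.25 for the control, where the 37S precursor features in place of 18S and 25S gave 1.41, so Sni445-HTP was the lower library in all of these but the cDNAs within the limit. The share of member counts within the 30 limit was 45.5% in cDNAs for Sni445-HTP and 9.95% for the control, against 51.8% and 38.2% in reads. The number of members called, 4, was 2 under the 30 limit, 0 in cDNAs, and 2 both without the 4 large features and with median-ratio scaling. Of all features tested, the shares called higher and lower in those settings were 34.2% and 96.6%, 16.5% and 31.2%, 31.3% and 42.6%, and 38.0% and 34.8%. No paired analysis was possible because each strain has 1 library and the result comes from no test, and for the same reason no library could be left out.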
